A study of Mus musculus with 2 samples.

Results

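The mouse genes named Zfp, for zinc-finger protein, were examined for open chromatin at their ends. Members were the protein-coding RefSeq genes on autosomes whose symbol is Zfp followed by a digit, which gave 388 of 20665 autosomal protein-coding genes. Of the 416 Zfp symbols in the gene table, 19 were not protein-coding and 9 lay on chromosome X. Open DNA was cut and tagged with a transposase and sequenced (ATAC-seq). There were 2 libraries, each from 150000 fetal liver cells of C57BL/6 embryos at stage E14.5, sorted as lineage-negative and c-Kit-positive, a gate for blood stem and progenitor cells. The control library (replicate 1) had the genotype CD45.2(+) Brd9fl/fl and the knockout library (replicate 2) CD45.2(+) Vav1-iCre Brd9fl/fl. Both thus carry the floxed Brd9 alleles, and the Cre recombinase, driven by regulatory DNA of the blood-cell gene Vav1, is present in the knockout. Brd9 codes for a bromodomain protein of non-canonical BAF, a complex that moves nucleosomes. The number of embryos behind a library is not stated in those labels, and a difference in the mix of cells within the gate cannot be told apart from one within cells.

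The name Zfp describes a protein fold and not one function. Most such proteins carry C2H2 fingers, loops held by a zinc ion that read DNA bases. Many of them also carry a KRAB domain, which binds the corepressor TRIM28 and through it SETDB1 and HP1 proteins, so that retroelements and imprinted sites are packed into silent chromatin. These KRAB genes multiplied by tandem duplication, and many lie in clusters of close relatives. Other members bind promoters of active genes, and a few bind RNA through CCCH fingers.

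The control list held 25330 peaks over 21.5 Mb and the knockout list 22348 peaks over 17.6 Mb. Their merging by 1 bp of overlap gave 29076 regions. A region belonged to a gene when it lay within 1 kb of either gene end. Its height is given in summit reads, the number of extended reads that cover the highest point of the peak, which was recovered from the deposited values. The background depth of the knockout library was 0.640 times that of the control. A scaled ratio is knockout over control summit reads divided by 0.640, so that 1 stands for equal height. With 1 library per genotype there was no replicate check and no test of a difference. Intervals are 95% intervals of the reads and cover counting error only. Of 8 stem and progenitor markers, 5 had a shared gene-end region, while Ptprc, Cd34 and Gata2 had none in either list. Among the 5, Tal1 had 214 control and 61 knockout reads (scaled ratio 0.445, 0.329 to 0.594) and Spi1 30 and 38 (1.98, 1.19 to 3.31), and the intervals of Kit, Myb and Runx1 include 1. The part of such marker shifts in the Zfp ratios was not tested. Alb, Afp and Ttr, defining hepatocyte genes, had none in either list, and neither had the 4 macrophage and 3 lymphoid markers. Of 6 erythroid markers, 3 had a shared region and 2 a control-only one. Epor had 369 control and 197 knockout reads (0.834, 0.698 to 0.994) and Hba-a1 30 and 35 (1.82, 1.09 to 3.07). The interval of Klf1 includes 1. Hbb-bs and Slc4a1 had control-only regions of 50 and 62 reads, and Gata1 had no region. The part of these erythroid shifts in the Zfp ratios was not tested either. Of 3 endothelial markers, Kdr had a separate region in each list, with 15 control and 17 knockout reads, and Cdh5 and Pecam1 had none. Apoa1, the remaining hepatocyte marker, had 26 and 19 reads.

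Promoters of 7 members show the kinds of sequence involved. Each line gives the 250 bases before the listed start site, 5′ to 3′ on the strand of the gene, from RefSeq on GRCm38.p6 (the coordinates of mm10), with every CpG dinucleotide in capitals. Zfp788 (chr7:41633281-41633530, plus strand) had the most reads among members with at most 9 CpGs in the 300-base window from 250 bases before to 50 bases after the start, a summit within 500 bp of it, and no annotated gene in the printed bases. Zfp712 (chr13:67061171-67061420, minus) had the most reads in the largest Zfp cluster. Zfp977 (chr7:42592546-42592795, minus), which has Zfp neighbours, and Zfp996 (chr12:18387241-18387490, plus) had no gene-end region in either list. Zfp977 was picked for a CpG number like that of Zfp788. Zfp996 was picked for the most CpGs among members with no region and no annotated gene in the printed bases. Zfp36 (chr7:28379229-28379478, minus) was open in the control list alone. Zfp266 (chr9:20521420-20521669, minus) stood among the lowest ratios of knockout over control, and Zfp523 (chr17:28176946-28177195, plus) had the highest ratio among members with enough reads.
Zfp788: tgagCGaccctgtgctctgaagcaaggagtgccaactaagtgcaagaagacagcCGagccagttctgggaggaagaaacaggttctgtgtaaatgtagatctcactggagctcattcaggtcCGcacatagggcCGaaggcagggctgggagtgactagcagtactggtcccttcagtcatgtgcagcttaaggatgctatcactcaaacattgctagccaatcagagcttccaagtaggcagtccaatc
Zfp712: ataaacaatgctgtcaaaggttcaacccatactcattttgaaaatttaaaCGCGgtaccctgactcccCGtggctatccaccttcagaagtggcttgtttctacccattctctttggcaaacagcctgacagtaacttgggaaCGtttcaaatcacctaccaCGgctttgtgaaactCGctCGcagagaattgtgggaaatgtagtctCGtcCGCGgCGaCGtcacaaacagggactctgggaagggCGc
Zfp977: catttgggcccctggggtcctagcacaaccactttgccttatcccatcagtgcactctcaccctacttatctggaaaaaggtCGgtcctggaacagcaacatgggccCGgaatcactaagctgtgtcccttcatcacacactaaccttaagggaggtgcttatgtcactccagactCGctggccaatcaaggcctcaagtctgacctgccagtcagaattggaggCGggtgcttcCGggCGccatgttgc
Zfp996: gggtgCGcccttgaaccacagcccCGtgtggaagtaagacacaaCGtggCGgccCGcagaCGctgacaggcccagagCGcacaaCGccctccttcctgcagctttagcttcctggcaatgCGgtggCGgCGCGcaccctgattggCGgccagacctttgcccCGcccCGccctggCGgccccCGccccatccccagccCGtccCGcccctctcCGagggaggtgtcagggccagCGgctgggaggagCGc
Zfp36: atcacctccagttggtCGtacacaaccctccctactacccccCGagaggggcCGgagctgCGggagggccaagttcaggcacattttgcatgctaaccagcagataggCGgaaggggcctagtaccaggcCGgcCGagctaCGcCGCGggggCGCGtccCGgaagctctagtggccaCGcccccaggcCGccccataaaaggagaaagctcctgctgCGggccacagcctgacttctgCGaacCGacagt
Zfp266: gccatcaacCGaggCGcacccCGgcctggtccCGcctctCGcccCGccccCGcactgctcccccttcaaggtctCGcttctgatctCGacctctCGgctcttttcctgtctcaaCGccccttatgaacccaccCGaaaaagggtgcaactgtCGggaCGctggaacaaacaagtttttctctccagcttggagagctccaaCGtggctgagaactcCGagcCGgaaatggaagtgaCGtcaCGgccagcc
Zfp523: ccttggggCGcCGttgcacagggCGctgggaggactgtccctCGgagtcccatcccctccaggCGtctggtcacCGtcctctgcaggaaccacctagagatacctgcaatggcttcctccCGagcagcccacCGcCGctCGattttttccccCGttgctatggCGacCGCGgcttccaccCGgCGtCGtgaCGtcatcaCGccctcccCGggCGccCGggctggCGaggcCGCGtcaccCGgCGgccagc
The printed bases of Zfp788 and Zfp977 hold 4 and 6 CpGs, and the first was open with 466 and 332 summit reads while the second was in neither list. Those of Zfp996 hold 22 CpGs and lay in neither list, whereas those of Zfp523 hold 27 and lay in an open region of both. Zfp996 is an extreme, since members with no region had a median of 9 CpGs in the 300-base window, against 15 in those with a shared region.

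Zfp genes were open at their ends more often than coding genes at large. A gene-end region stood in both lists at 270 of the 388 members, or 69.6%, against 48.8% of all autosomal protein-coding genes. It stood in the control list alone at 13 members (3.35%, against 3.42% of all) and in the knockout list alone at 8 (2.06%, against 1.83%). At 96 members (24.7%, against 45.8%) neither list had one. Zfp651 had a control-only and a separate knockout-only region, with 14 and 13 reads. The shares of members with a region in 1 list alone were thus near those of all genes, and the excess was in shared regions. The 270 genes had 265 distinct regions, since 5 regions each stood for a pair of members. For 44 of the 270 the region also lay within 1 kb of another protein-coding gene. Zfp583 and Zfp574 lay just outside the 1 kb limit, with their nearest region at 1190 and 1043 bp, and Zfp52 and Zfp879 just inside it, at 942 and 992 bp.

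Most of these regions lay at the start of the gene. RefSeq start sites were listed for 325 members. In the 223 of them with a shared gene-end region, the control summit lay within 500 bp of a start site at 204, or 91.5%, against 83.5% of all coding genes with a shared region and a listed start. The median distance was 101 bp, and control and knockout summits lay a median of 45 bp apart. Counted around the listed start sites in place of the gene ends, 244 of the 325 members (75.1%) had a shared region, against 50.8% of all coding genes with a listed start. Among them were 22 members with no region at a gene end. Away from the ends, 88 members had 136 further regions inside the gene, 89 of them shared, 29 control-only and 18 knockout-only. Such regions stood in 22.7% of members and 27.8% of all coding genes, where 5823 of 11271 were shared.

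Shared regions of members were somewhat lower than those of coding genes at large. The control median was 98.5 summit reads and the knockout median 60, against 121 and 75, and their range was 12 to 937 and 8 to 638. A region that also lay at another coding gene was less frequent in members, 44 of 270 against 3132 of 10089. The control median was 188 in those 44 and 82 in the other 226 members. The part of this in the lower height was not tested. The highest member was Zfp687, which encodes a partner of the chromatin reader ZMYND8, with 937 control and 607 knockout reads (chr3:95015020-95016552). Zfp78 followed with 890 and 638, Zfp143, a factor that binds active promoters, with 867 and 602 (chr7:110060838-110062170), and Zfp367 with 791 and 559. Zfp91, an E3 ubiquitin ligase gene, had 782 and 607 reads in a region that also lies at Lpxn, so the reads cannot be assigned to one of these genes. Zfp869, Zfp438, Zfp524, Zfp788 and Zfp654 completed the 10 highest, with 459 to 744 control and 332 to 464 knockout reads. Of these 10, Zfp78 (scaled ratio 1.12, 1.01 to 1.24), Zfp91, Zfp524 and Zfp654 had an interval above 1, and none had one below 1, against 9.48% above and 7.67% below over all coding genes with a shared region. These shares are not directly comparable. The 10 were picked by reads, and more reads give narrower intervals than at the coding median of 121 control reads. As at Zfp91, the regions of Zfp524 and Zfp654 also lie at another protein-coding gene, so their reads cannot be assigned to one gene.

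The shared regions had about the same height in both libraries after scaling. The median log2 scaled ratio of the 270 genes was −0.02, against 0.01 over the 10089 coding genes with a shared region. The quartiles of the members were −0.27 and 0.18, against −0.20 and 0.21. Below 1 were 142 members (52.6%, against 48.3%). The SD of the log2 ratio was 0.36 in members and 0.36 over all coding genes, and counting error alone would give 0.29 and 0.27. No member reached a scaled ratio of 2 (0 of 270, against 0.942% of all), and 4 had one of 0.5 or less (1.48%, against 0.634%). An interval above 1 was found at 15 members (5.56%, against 9.48%) and one below 1 at 19 (7.04%, against 7.67%).

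**Figure D1:**
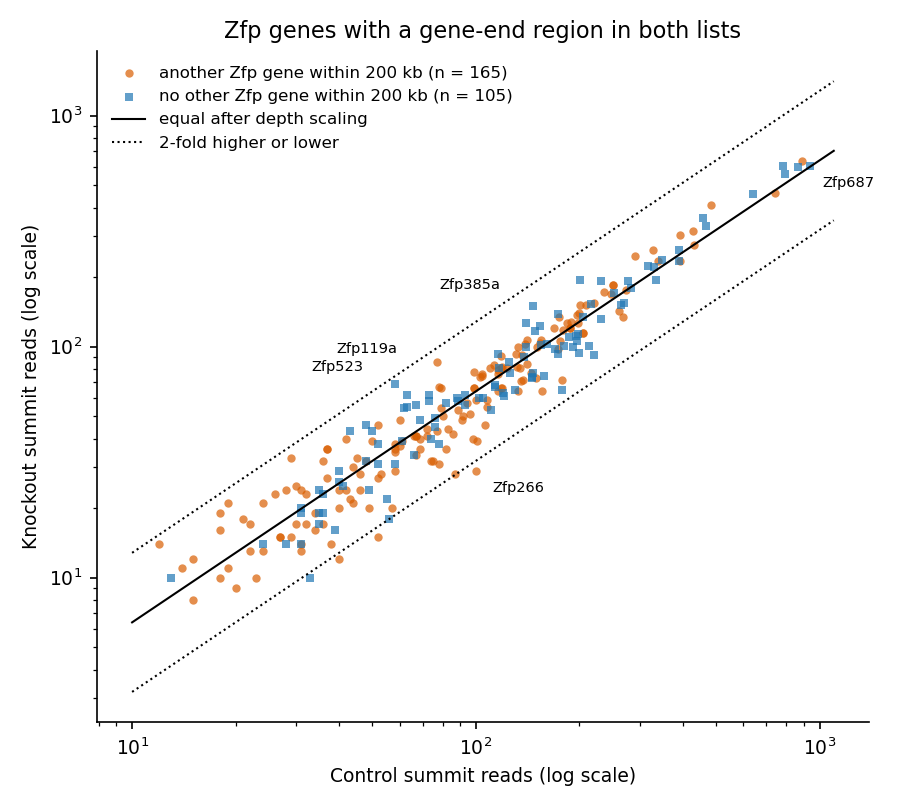
Summit reads in the control (x axis) and knockout library (y axis), both on log scales, for the 270 Zfp genes with a shared gene-end region, coloured by whether another Zfp gene lies within 200 kb. The solid line marks a scaled ratio of 1 and the dotted lines ratios of 2 and 0.5; no point lies above the upper dotted line and 4 lie below the lower one.

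Of the 8 lowest ratios, 3 (Zfp248, Zfp422 and Zfp637) lay on chromosome 6, which holds 17 of the 388 members. Ranking covered the 259 members with at least 20 control and 10 knockout reads. Zfp248 had 52 control and 15 knockout summit reads (chr6:118454879-118455792; scaled ratio 0.450, 0.236 to 0.813). Zfp266, whose promoter is printed above, had 100 and 29 (chr9:20520720-20521985; 0.453, 0.289 to 0.691), the narrowest interval of the 4 members at 0.5 or less. With gene ends taken at 2.5 kb, another region with more reads stood for Zfp266, and its log2 ratio was −0.10 in place of −1.14. The highest log2 ratio in its stretch, at another Zfp gene, was also −0.10. Around its listed start sites the value for Zfp266 was −1.14. Zfp952 (40 and 12 reads) and Zfp422 (33 and 10) had ratios of 0.469 and 0.473. Just outside the limit stood Zfp930 and Zfp120, with ratios of 0.502 and 0.503. Zfp637 and Zfp512b completed the lowest 8, the latter with 178 and 65 reads in a region that also lies at Uckl1, beyond the far end of the gene; its start-site region had a log2 ratio of 0.21 in place of −0.81. All 8 had intervals below 1, and counts in the knockout were 10 to 65 reads.

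Of the 8 highest ratios, 4 lay on chromosome 17, which holds 46 of the 388 members. Zfp523 had 58 control and 69 knockout reads (chr17:28176886-28177784; scaled ratio 1.86, 1.29 to 2.68). At 2.5 kb a higher region stood for it, and its log2 ratio was −0.57 in place of 0.89, so this value belongs to the one site. Zfp994 had 29 and 33 reads (1.78, 1.05 to 3.03) and Zfp119a 77 and 86 (1.74, with an interval above 1). Zfp385a, which encodes an RNA-binding partner of p53, had 147 and 150 (chr15:103339239-103340683; 1.59, 1.26 to 2.01). Zfp236 (43 and 43 reads; 1.56, 0.999 to 2.44) and Zfp521 (63 and 62) followed. Zfp30 and Zfp799 tied for the last place of the 8 highest, each with 37 and 36 reads, a ratio of 1.52 and an interval that includes 1. Zfp318, at 1.51, came next. It was chosen as a member of a role group, not by rank.

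Members open in 1 list alone were mostly weak, with one exception. Zfp36 encodes tristetraprolin, a CCCH protein that binds AU-rich elements of cytokine messages and speeds their decay. Its region (chr7:28379193-28379595) had 130 summit reads in the control (109 to 154), and the knockout list had no peak there, although that list names peaks with as few as 6 reads. The region was 403 bp wide, and the shortest peak in either list had 376 bp, so a narrower site in the knockout would not be listed; whether this applies was not tested. The other 12 control-only members had 10 to 36 reads. Zfp867 had 36 (25.2 to 49.8), Zfp764 31, Zfp58 29, Zfp772 23, Zfp446 22, Zfp953 20 and Zfp455 19. Zfp354c and Zfp879 share 1 region with 29 reads, and Zfp105, Zfp941 and Zfp652 had 10 to 14. The 8 knockout-only members, Zfp951, Zfp442, Zfp114, Zfp287, Zfp937, Zfp108, Zfp423 and Zfp800, had 8 to 14 reads. Their counts overlapped the lowest ones of the shared members, which began at 12 control and 8 knockout reads.

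CCCH genes other than Zfp36 were open in both lists. Zfp36l2, which is needed for the self-renewal of early erythroid progenitors, had 389 control and 261 knockout summit reads (scaled ratio 1.05, 0.892 to 1.23). Zfp36l1 had 220 and 92 (chr12:80112665-80113622; 0.653, 0.506 to 0.837). Its interval lay below 1, and the 3 CCCH genes thus differed among themselves. Gm52006 also lies at the Zfp36l1 region.

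Of the genes that silence imprints and retroelements, 4 of 6 had a shared region, near the 69.6% of all members. Zfp57, which keeps methylation at imprinted sites in early embryos, and Zfp708, a KRAB repressor of a retroelement family, had none in either list. Zfp809, which silences retroviruses in embryonic cells, had 236 control and 172 knockout summit reads (1.14, 0.930 to 1.39). Zfp568, a repressor of a placental Igf2 promoter, had 108 and 55 (0.795, 0.564 to 1.11). Zfp932 had 58 and 35, and Zfp445, a second keeper of imprints, had 15 and 12 in a region that also lies at Zkscan7. None of the 4 intervals left out 1.

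Promoter and chromatin factors had a shared region at 16 of 18 genes, against 69.6% of members and 48.8% of all coding genes. Zfp462 and Zfp532 had none. Besides Zfp687 and Zfp143, the highest were Zfp219 with 389 control and 235 knockout summit reads, Zfp131 with 283 and 180, Zfp644, which joins the histone methyltransferases G9a and GLP, with 213 and 101, and Zfp335 with 198 and 114. The regions of Zfp219 and Zfp131 also lie at another protein-coding gene. Zfp644 was the single one of the 16 with an interval that left out 1 (0.741, 0.578 to 0.943). Zfp384, a partner in leukaemia fusion genes, had a ratio of 1.07 (0.807 to 1.43), Zfp281, a pluripotency factor, 0.787 (0.569 to 1.08) and Zfp148 1.24 (0.863 to 1.78). Zfp518a and Zfp518b, paralogues, had 48 and 46 reads (log2 ratio 0.58) and 41 and 25 reads (log2 ratio −0.07), and both intervals include 1. Zfp746, Zfp592, Zfp516, Zfp827 and Zfp217 had 28 to 103 control reads and intervals that include 1. The median log2 ratio of the group was −0.04, with 10 genes below and 6 above 0, where 48.3% of all coding genes lay below.

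Of 9 blood and immune genes analysed, 6 had a shared region, a share near the 69.6% of all members and above the 48.8% of coding genes. An interval above 1 was found at 3 of the 6, against 5.56% of members and 9.48% of coding genes. Zfp521, a cofactor gene of stem and progenitor cells, had 63 control and 62 knockout summit reads (1.54, 1.06 to 2.22). Zfp318, which controls the switch to IgD messages in B cells, had 201 and 194 (chr17:46383211-46383769; 1.51, 1.23 to 1.85). Zfp91 had a ratio of 1.21 (1.09 to 1.35) at its region shared with Lpxn. Zfp318 and Zfp91 lay above the coding median of 121 control reads and Zfp521 below it. More reads give narrower intervals, so the shares of intervals above 1 are not directly comparable. Zfp407 (82 and 57 reads), Zfp608 (88 and 60) and Zfp609 (66 and 34) had intervals that include 1. The Zfp609 region also lies at another protein-coding gene. Zfp423, a partner of the B-cell factor EBF1, had 9 reads in the knockout list alone, and Zfp366 and Zfp467 had no region. This group, the other role groups and the list of KRAB partner genes were chosen with earlier results of these data known. Their counts are descriptions.

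All 8 genes for RNA, ribosome and division functions had a shared region, against 69.6% of members and 48.8% of all coding genes. Zfp622, a ribosome assembly gene, had 269 control and 154 knockout summit reads (0.894, 0.729 to 1.09). Zfp207, whose protein binds kinetochores, had 120 and 63, Zfp598, the sensor of collided ribosomes, 114 and 67, and Zfp638 138 and 90. Zfp346, Zfp106 and Zfp593 had 52 to 114 control reads, and the Zfp593 region also lies at another protein-coding gene. The 7 genes other than Zfp385a had intervals that include 1. Of 5 pluripotency and germ-line genes, Zfp42, a pluripotency marker, Zfp541 and Zfp352, an early embryo gene, had no region. Zfp322a had 146 and 74 reads (0.792, 0.590 to 1.05) and Zfp296 35 and 24 (1.07, 0.609 to 1.85).

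**Figure D2:**
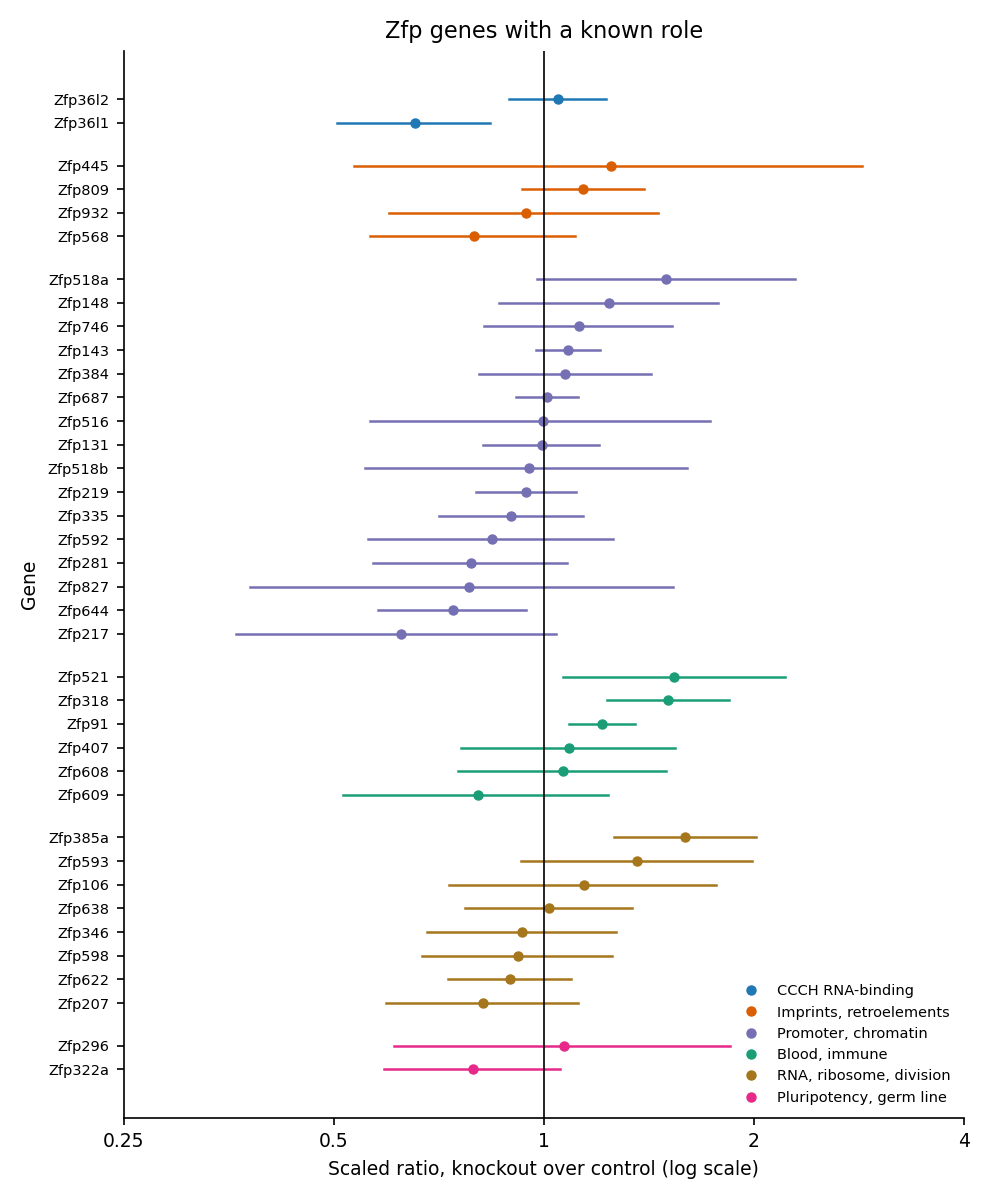
Scaled ratio of knockout over control summit reads (x axis, log scale) for the role-group genes with a shared gene-end region, 1 row a gene, coloured by group; lines are 95% intervals of counting error. Zfp36l1 and Zfp644 lie below 1 with their intervals, and Zfp521, Zfp318, Zfp91 and Zfp385a above 1.

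Of 26 listed partner genes of the KRAB proteins, 23 had a shared region, against 48.8% of all coding genes, and 3 (Dnmt1, Dnmt3a and Tasor) had none at a gene end. Trim28 had 232 control and 161 knockout summit reads (1.08, 0.881 to 1.33) and Setdb1 96 and 66 (1.07, 0.773 to 1.48). The HP1 genes Cbx3 (694 and 446 reads), Cbx5 (602 and 384) and Cbx1 (125 and 65) had intervals that include 1. Ehmt1, the GLP methyltransferase gene, had 36 and 56 reads (2.43, with a lower bound of 1.57). Hdac2 (257 and 240; 1.46, 1.22 to 1.75), Atf7ip, Suv39h2 and Morc2a also had intervals above 1, and Uhrf1, which guides maintenance DNA methylation, one below 1 (358 and 163; 0.711, 0.587 to 0.858). In all, 5 of 23 were above and 1 below, against 9.48% and 7.67% of coding genes. These shares are not directly comparable. The 23 genes had 5162 control reads together, against a coding median of 121 per gene, and more reads give narrower intervals.

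Members were uneven over the chromosomes. Chromosome 7 held 93 of the 388, or 24.0%, against 9.82% of all coding genes, chromosome 17 held 46 and chromosome 13 held 37. A shared region stood at 82.6% of the members on chromosome 17, 73.1% on chromosome 7 and 64.9% on chromosome 13, against 51.4%, 39.4% and 50.7% of all coding genes there. Chromosome 4 was the other way round, with 9 of 27 members (33.3%, against 49.2%), and on chromosome 2 the shares were 44.4% and 46.7%. The median log2 ratio of members was −0.25 on chromosome 9 (15 genes, 11 below 0) and −0.20 on chromosome 13 (24 genes, 18 below 0), where all coding genes had 0.00 and −0.00. It was 0.27 on chromosome 16 (5 of 5 genes above 0), 0.41 on chromosome 19 (3 of 3) and 0.14 on chromosome 18 (6 of 8), where all coding genes had 0.04, 0.08 and 0.02. It was 0.05 on chromosome 17 (38 genes, 22 above 0) and −0.04 on chromosome 7 (68 genes, 36 below 0). Over all coding genes with a shared region, 48.3% lay below 0. On chromosome 9, Zfp266 and Zfp560 (106 and 46 reads; 0.678, 0.469 to 0.967) had an interval below 1, and Zfp26 (74 and 32 reads; 0.675) lay between them with one that includes 1.

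**Figure D3:**
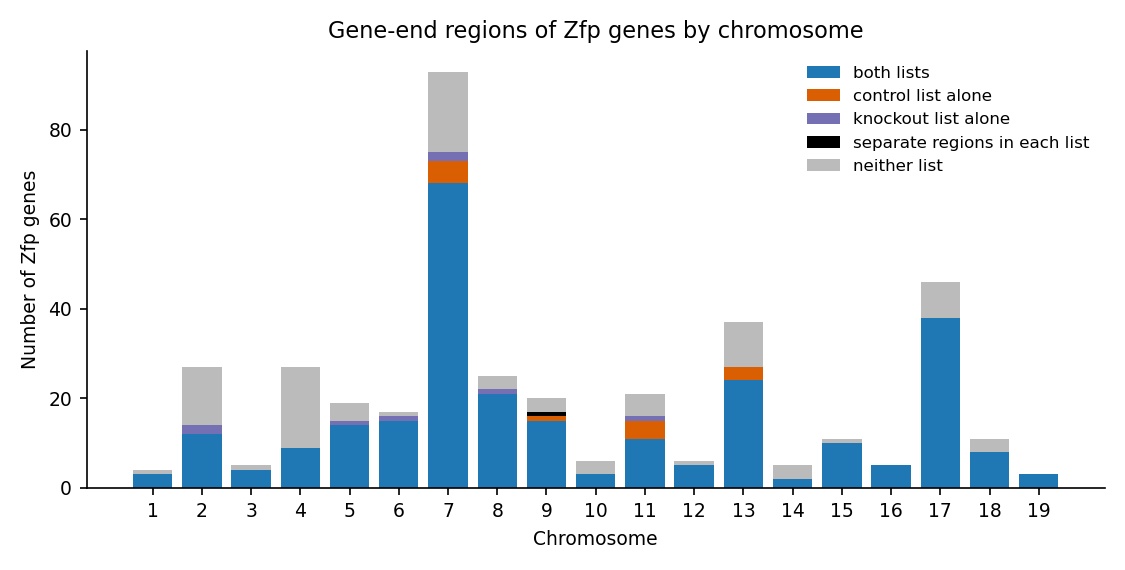
Number of Zfp genes per autosome (y axis), stacked by the list or lists that hold a gene-end region. Chromosome 7 holds 93 members, 68 of them in both lists, and on chromosome 4, with 27 members, 9 are in both.

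Members with another Zfp gene close by had a shared region at a similar share to those without, and lower median reads. Another member lay within 200 kb of 241 genes, and the remaining 147 had none. A shared region stood at 165 of the 241 (68.5%) and at 105 of the 147 (71.4%). The control list alone held 9 and 4, the knockout list alone 5 and 3, and neither list 62 and 34. Shared regions had medians of 86 control and 48 knockout reads in genes with a Zfp neighbour, against 120 and 68 in those without. The quartiles of the control counts were 42 and 141 with, and 58 and 198 without, a neighbour, so these ranges overlapped widely. The median log2 scaled ratio was −0.04 with and −0.00 without a neighbour, with SDs of 0.37 and 0.34. Intervals below 1 numbered 12 of 165 and 7 of 105, and intervals above 1 numbered 7 and 8, against 7.67% and 9.48% of coding genes. The share with a shared region was 59.2% of 49 genes with 1 neighbour, 67.4% of 86 with 2 to 4 and 73.6% of 106 with 5 or more. Their median log2 ratios were −0.12, 0.08 and −0.08, in no order. Of the 12 intervals below 1, 6 came from the 29 open genes with 1 neighbour (20.7%), which had none above 1 and 69.0% of ratios below 1. Genes with 2 to 4 neighbours had 3 of 58 below and 5 above, and those with 5 or more 3 of 78 below and 2 above. Zfp433, with its nearest member at 179935 bp, lay just inside the 200 kb limit, and Zfp516 and Zfp236, 216773 bp apart, just outside.

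The share of open members varied widely between single clusters. Chaining members at gaps of up to 200 kb gave 51 stretches. The largest, Zfp712 to Zfp273 on chromosome 13 (67038594 to 67827000), holds 23 members in 788 kb, of which 13 had a shared region, 3 a control-only one and 7 none. In the stretch from Zfp677 to Zfp946 on chromosome 17, 17 of 18 had a shared region, and from Zfp84 to Zfp146 on chromosome 7, 14 of 15 did. Far fewer were open in the stretch from Zfp992 to Zfp933 on chromosome 4, with 3 of 12, and from Zfp180 to Zfp575 on chromosome 7, with 5 of 12. The stretch from Zfp871 to Zfp101 on chromosome 17 had 9 of 12. The chromosome 4 stretch is long, 1400 kb, and held 8 regions of any kind, 0.571 per 100 kb, against 3.17 in the chromosome 13 stretch. Its 3 open members, Zfp978, Zfp982 and Zfp933, had 22 to 30 control and 10 to 25 knockout reads. Genes with near-identical copies, such as Zfp729a and Zfp729b or Zfp874a and Zfp874b, are uncertain, since no source used here says how reads that map to several places were treated. Its part in these counts was not tested.

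Within a cluster the heights varied over a wide range. On chromosome 13 the control counts of the shared members ran from 27 to 133 reads, and the highest, Zfp712, had 133 and 64 (0.751, 0.549 to 1.02). Of the 13, 11 had a ratio below 1 (84.6%, against 48.3% of coding genes), and these 13 are among the 24 genes counted above for chromosome 13. Ratios ran down to 0.666 at Zfp748 (75 and 32 reads; 0.426 to 1.02), and Zfp273 at the other end had 1.23 (99 and 78; 0.903 to 1.67). None of the 13 intervals left out 1. On chromosome 17, in the stretch from Zfp677, 11 of 17 ratios were above 1 and 35.3% below, against 48.3% of coding genes below. Zfp947 (0.575, 0.288 to 1.09) and Zfp994 (1.78) were its extremes. In the stretch from Zfp871, Zfp952 and Zfp763 (98 and 40; 0.637, 0.430 to 0.930) had intervals below 1, and Zfp799 had 1.52. That is 22.2% of its shared members with an interval below 1, against 7.67% of coding genes. Zfp180 stood out in its stretch with 338 and 236 reads, where the next highest shared member, Zfp94, had 72 and 41 in a region past the far end of the gene.

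**Figure D4:**
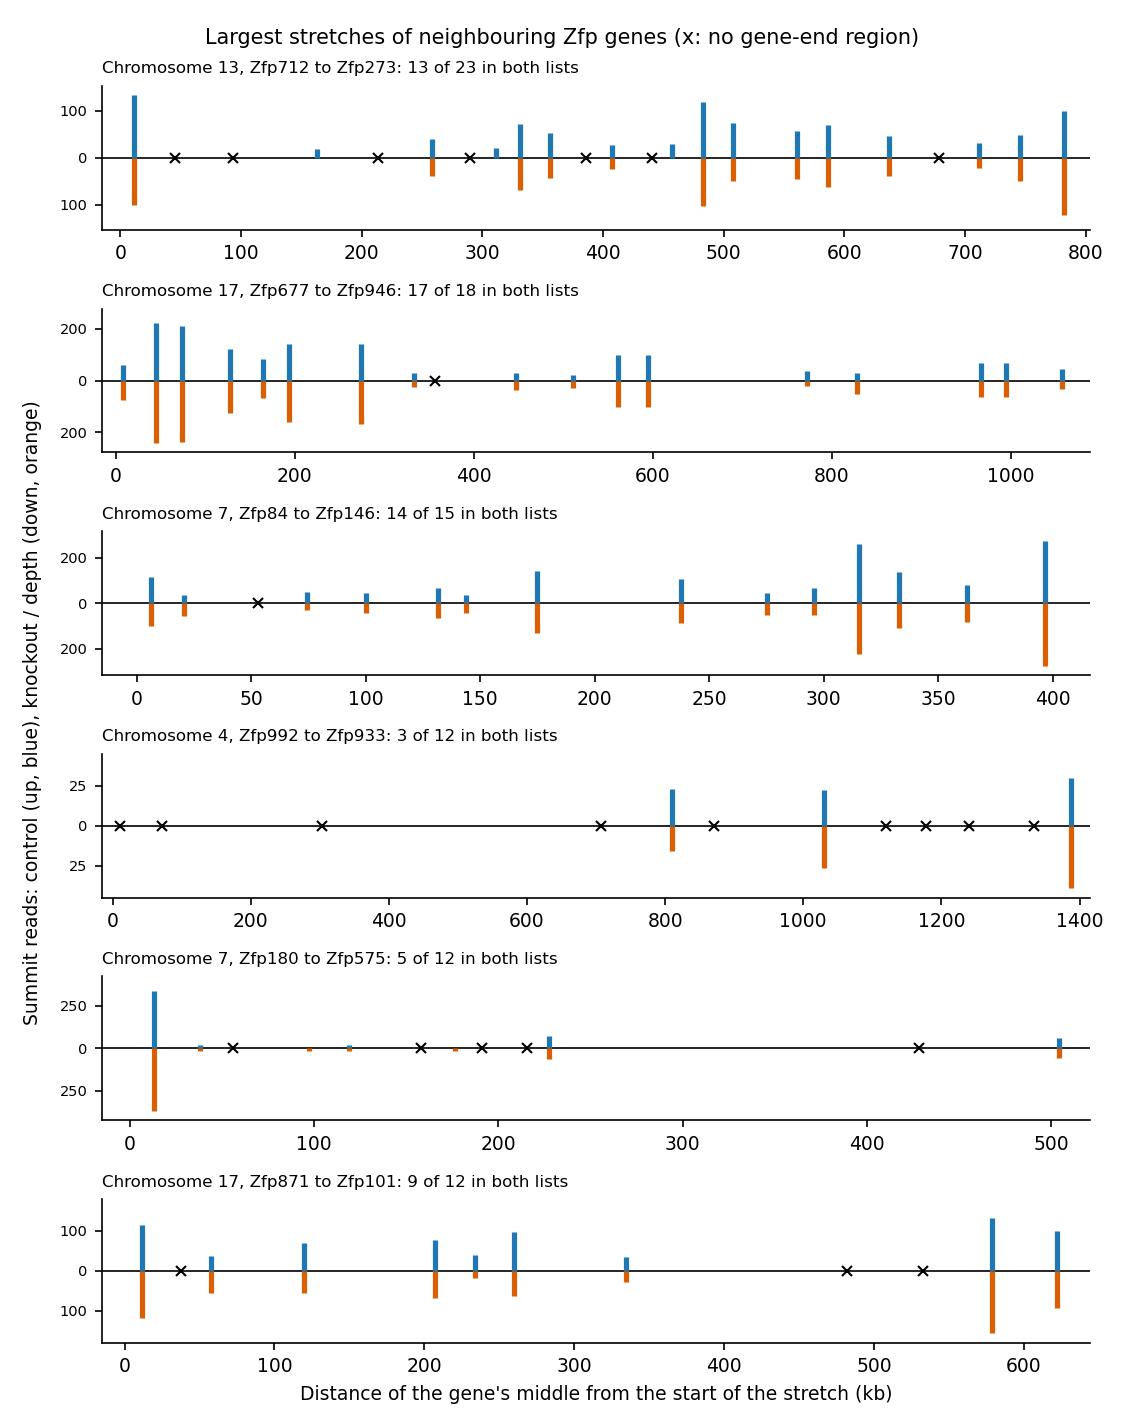
Summit reads of members in the 6 largest stretches, control upward and knockout divided by the relative depth downward (y axes), against the distance of the gene's middle from the start of the stretch in kb; crosses mark members with no gene-end region. Heights differ widely between members, Zfp952 and Zfp947 have a taller control bar and Zfp799 and Zfp994 a taller knockout bar, and the chromosome 4 stretch holds 9 crosses among 12 members.

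Among promoters with few CpGs, those of Zfp genes were open more often than those of coding genes at large. The 300-base windows of the 325 members with a listed start held a median of 13 CpGs, against 14 in the 16457 coding genes with one. At 5 to 9 CpGs, 49 of 84 members (58.3%) had a shared gene-end region, against 30.1% of 2185 coding genes. At 0 to 4 CpGs these shares were 35.7% of 28 and 7.97% of 4627. At 20 CpGs or more they were near each other, 81.5% of 92 and 78.2% of 6148. Counted at start sites, the shares at 5 to 9 CpGs were 61.9% and 28.3%. Within the members, CpGs still went with openness, with a median of 15 in promoters of genes with a shared region and 9 in those with none; over all coding genes these were 22 and 4. Members with a Zfp neighbour had fewer CpGs than lone ones, with medians of 11 and 18 and GC contents of 53.3% and 59.7%. Read height followed the same order, from a median of 25 control reads at 0 to 4 CpGs to 118 at 20 or more.

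**Figure D5:**
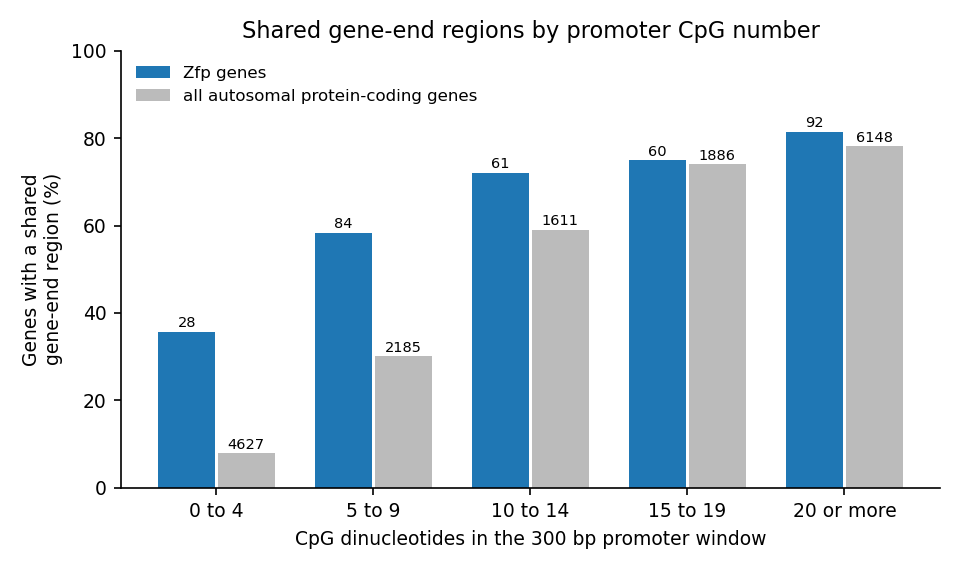
Share of genes with a gene-end region in both lists (y axis, percent) by the number of CpG dinucleotides in the 300-base promoter window, for Zfp genes and all autosomal protein-coding genes; numbers above the bars are genes in the bin. The bars differ most at 5 to 9 CpGs, with 58.3% and 30.1%, and least at 15 to 19 CpGs, with 45 of 60 Zfp genes and 74.0% of all.

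Short motifs were counted on both strands of the same windows. CCGGAAG, the core bound by ETS factors, stood in 22.5% of the Zfp promoters and 12.3% of all coding promoters. Among genes with a shared region the shares were 21.5% and 20.5%, and among those with none 26.5% and 3.74%. The 31-base stretches around the match in the 4 open members with most reads, out of those with a summit within 500 bp of the start, the match in the 250 bases before it and clear of annotated genes, show it in the middle, in capitals, as its reverse complement CTTCCGG (chr8:71922651-71922681, chr7:12834703-12834733, chr8:4613139-4613169 and chr7:27731372-27731402, all plus strand).
Zfp617: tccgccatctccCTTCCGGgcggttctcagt
Zfp110: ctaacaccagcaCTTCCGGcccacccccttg
Zfp958: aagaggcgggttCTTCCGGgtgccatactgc
Zfp60: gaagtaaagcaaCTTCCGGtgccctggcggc
The matches start 162, 46, 19 and 25 bases before the start site. AANATGGCG, a core of YY1 sites, stood in 7.08% and 3.28%, ACTACAA, the core of Zfp143 sites, in 6.46% and 3.96%, and GCGC, any 2 bases, GCGC, the core of NRF1 sites, in 8.92% and 9.19%. Median log2 ratios of open members with and without a match were −0.05 and −0.06 for CCGGAAG (48 and 175 genes). They were 0.04 and −0.07 for ACTACAA (14 and 209), 0.04 and −0.07 for the NRF1 core (24 and 199), and −0.10 and −0.05 for the YY1 core (19 and 204). Over all open coding genes the pairs were, in the same order, −0.01 and 0.02, −0.03 and 0.02, 0.03 and 0.01, and −0.00 and 0.01. A match is a run of letters and not a bound site.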

How the data were processed

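Peak lists of 1 control and 1 knockout ATAC-seq library were used. Per the submitters' processing notes, the tools were MACS2 (version 2.2.7.1), Bowtie2 (version 2.4.4), Trimmomatic (version 0.39), deepTools (version 3.5.1) and Picard (version 2.26.2), with the build mm10 and no roles or settings. The authors deposited 1 list for each library. The deposited score was not used. The deposited fold, a ratio of pileup to local background with a pseudocount of 1 on each, and the deposited −log10 p-value gave a whole number of summit reads for 100% of peaks, at a relative misfit of at most 7.31e-06 in the control and 7.17e-06 in the knockout list. The recovery was also run on simulated peaks made with the same formula. That checks the computation only and cannot show that the deposited values follow the formula. The deposited −log10 q-value ranked and filtered peaks. The ratio of the lowest backgrounds, 1.52 and 0.971 reads, served as relative depth, so absolute depth is unknown. For each gene the shared region with most reads was used. Ratio intervals are exact conditional binomial, and those of single counts exact Poisson.

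Genes, start sites and promoters came from RefSeq GRCm38.p6. Planned protein features were not analysed here, nor was Zfp683. Named genes were the role groups, the 10 highest members, the 8 highest and lowest ratios, members in 1 list alone, the largest stretches and members next to a limit; others were chosen after their values were seen. Members and lists were chosen with earlier results of these data known. Computation used SciPy (version 1.17.1), pandas (version 2.3.3) and NumPy (version 2.4.6) in Python (version 3.11.15), and plots matplotlib (version 3.10.9).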

Additional observations from a re-analysis of the deposited data

How the results depend on the processing

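No paired analysis was possible because each genotype has 1 library and the replicate numbers differ. Of 111 values recomputed for the 11 main results under 13 settings, 99 stayed within 1.5 times the count or within the 95% interval of the share or median; intervals here are binomial over genes and serve only as a yardstick. With equal numbers of top peaks, 11174 a list, 158 members were in neither list, 1 had a ratio of 0.5 or less, and shared regions stood at 51.5% of members with and 57.8% of those without a Zfp neighbour, against 38.2% of all coding genes; fewer peaks enter by construction. When only peaks reaching 5 in −log10 q were kept, the knockout list alone held 5 members. Gene ends at 2.5 kb gave 1 member with a ratio of at least 2. At start sites, 63 of 325 members were in neither list. There 76.0% of those with a neighbour and 73.5% of those without were in both, the reverse of the order at gene ends. Within 500 bp these were also 76.0% and 73.5%. In the same 325 members the shares at gene ends were 68.3% and 69.2%, closer together than over all 388. The cause of the reversal was not tested. Without chromosomes 7 and 17 (chosen after seeing the data), shared regions numbered 164 and control-only ones 8, and 61.0% of those with a neighbour were in both, against 70.6% of those without. Log2 ratios were also recomputed at 59 named genes. Most settings keep the same region and reads for most of these genes, so agreement there was fixed in advance. Genes that lost their shared region under a setting were not counted, such as Zfp248, Zfp422 and Zfp952 with equal numbers of top peaks. Of 576 recomputed log2 ratios, 572 stayed within their interval, which is thus no measure of stability. The other 4 came from a different region standing for the gene: −0.10 at Zfp266 and −0.57 at Zfp523 with ends at 2.5 kb, and 0.21 at Zfp512b in both start-site settings. Members open in 1 list alone, other than Zfp36, had at most 36 summit reads, and the part of depth in their status was not tested.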
